A study of Homo sapiens with 15 samples.

Results

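The genes described here encode 7 enzymes that convert one steroid hormone into another, and what was measured is how often their promoters contacted other DNA. Members were the chromatin loops with an anchor within 2.5 kb of the annotated start of SRD5A1, SRD5A2, SRD5A3, HSD3B1, HSD17B4, HSD17B11 or AKR1C3, a rule of position alone. They numbered 129 of 505995 different loops, and at each gene all loops shared a single 1 kb anchor at the promoter. Loops were called in 5 kb bins, which leave room for few anchors in such a window. SRD5A1 held 54 of the 129 loops, HSD17B4 32, HSD17B11 23, SRD5A3 15, SRD5A2 and AKR1C3 2 each and HSD3B1 1. The median over the 16251 protein-coding promoters with loops was 20 loops, with quartiles of 6 and 38.

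Androgens are made and broken down by short chains of such enzymes. HSD3B1 oxidises the 3-beta hydroxyl group of adrenal precursors such as DHEA, a step needed to make androstenedione. AKR1C3 reduces androstenedione to testosterone at the 17-keto group, and the 5-alpha reductases SRD5A1 and SRD5A2 reduce testosterone to dihydrotestosterone (DHT), the most potent natural androgen. SRD5A3 is named for its likeness to these reductases and is best known for making dolichol, the lipid carrier of protein glycosylation. HSD17B4 is a peroxisomal enzyme of fatty acid oxidation that also inactivates 17-beta hydroxysteroids, and HSD17B11 is a short-chain dehydrogenase of lipid droplets that oxidises 17-beta hydroxysteroids and their 5-alpha reduced derivatives. In prostate cancer this set is of interest because tumour cells can make their own ligand from circulating precursors.

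Contact was measured by HiChIP, in which ligated DNA contacts are enriched by antibody to a histone mark, in LNCaP cells, a human prostate adenocarcinoma line that grows in response to androgen. All cells were first kept for 3 days in medium with charcoal-stripped serum, and were then given DHT at 10 nM or, in the 0 m group, the vehicle EtOH. Treated cells were taken at 30 m, at 4 h, at 16 h and finally at 72 h. H3K27ac, the acetylation of active enhancers and promoters, was assayed in 2 samples per group and H3K4me3, the methylation of promoters, in 1, making 15 samples of 1 cell line. Each of the 10 tables gives a loop a single value, so no spread between replicates could be had and no test between groups was made. Intervals below are exact 95% intervals from the read pairs behind a value and cover counting error only. A read pair needs both a contact and the mark at one of its ends, and the tables cannot tell a change of one from a change of the other.

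The 5 H3K27ac tables held 2475168 to 4308555 read pairs in loops and those of H3K4me3 held 2153262 to 10675614, with 4 h the deepest. The labelled cell line was checked through loops at marker promoters, which describe contact and not expression. The 5 prostate luminal genes KLK3, KLK2, TMPRSS2, HOXB13 and FOLH1 had 7 to 59 loops and a mean H3K27ac contact of 90.3 to 299.6. The 3 basal genes (KRT5, KRT14 and TP63) had 0 loops, and the 3 neuroendocrine genes (CHGA, SYP and INSM1) had 1 to 4 loops and a mean H3K27ac contact of at most 1.02.

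The promoters differed in their sequence as well as in their loops, and 4 of them are printed here because they span the range from many loops to few. Each is the 250 bases before the annotated start, 5′ to 3′ on the strand of the gene, from GRCh37, with every CG in capitals. SRD5A1 lies at chr5:6633303-6633552 on the plus strand, SRD5A2 at chr2:31806008-31806257 on the minus strand, HSD17B11 at chr4:88312341-88312590 on the minus strand and AKR1C3 at chr10:5136356-5136605 on the plus strand.
SRD5A1: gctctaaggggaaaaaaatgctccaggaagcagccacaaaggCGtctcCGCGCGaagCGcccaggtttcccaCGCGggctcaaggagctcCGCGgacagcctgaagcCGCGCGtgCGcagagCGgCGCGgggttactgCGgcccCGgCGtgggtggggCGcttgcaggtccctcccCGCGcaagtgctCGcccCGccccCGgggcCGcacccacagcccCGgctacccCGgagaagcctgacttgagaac
SRD5A2: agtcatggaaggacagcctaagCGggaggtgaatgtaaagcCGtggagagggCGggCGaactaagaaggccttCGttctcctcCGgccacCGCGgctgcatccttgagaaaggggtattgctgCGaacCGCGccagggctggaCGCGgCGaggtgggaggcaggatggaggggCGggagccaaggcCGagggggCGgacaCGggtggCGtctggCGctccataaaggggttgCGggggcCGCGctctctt
HSD17B11: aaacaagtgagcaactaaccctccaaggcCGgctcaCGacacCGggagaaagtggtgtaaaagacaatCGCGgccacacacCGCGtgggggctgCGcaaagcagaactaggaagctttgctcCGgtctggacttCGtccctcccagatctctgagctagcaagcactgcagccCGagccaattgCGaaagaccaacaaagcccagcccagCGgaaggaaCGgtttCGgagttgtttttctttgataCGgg
AKR1C3: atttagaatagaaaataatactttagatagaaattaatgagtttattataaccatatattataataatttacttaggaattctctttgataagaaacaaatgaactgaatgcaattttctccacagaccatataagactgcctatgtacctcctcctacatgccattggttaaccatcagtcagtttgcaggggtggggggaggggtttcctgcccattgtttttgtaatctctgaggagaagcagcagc

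The printed stretches held 28 CG in SRD5A1, 23 in SRD5A2, 16 in HSD17B11 and 0 in AKR1C3. Over the 300 bases from 250 before to 50 after the start, the counts were 33 for SRD5A1, 31 for SRD5A3, 29 for SRD5A2, 19 for HSD17B4, 18 for HSD17B11, 1 for HSD3B1 and 0 for AKR1C3, beside a median of 23 over 19158 promoters. The CG-poor promoters of HSD3B1 and AKR1C3 were among those with few loops, but so was the CG-dense promoter of SRD5A2. GGGCGG, the GC box read on both strands, lay in 4 of the 7 promoters (SRD5A1, SRD5A2, SRD5A3 and HSD17B4) and in 61.5% of all promoters. CCAAT lay in 2 (HSD17B11 and AKR1C3) and in 36.1% of all. AGAACA, an arm of the androgen response element, lay in none of the 7 and in 10.5% of all, TGTTTAC, a forkhead motif, in none and 2.43%, and TATAAA in none and 9.60%. The whole element, AGAACA followed after any 3 bases by its reverse complement TGTTCT, was in 0% of promoters.

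Contact is given as the sum over the loops of a promoter, in units that the authors scaled among the 5 groups of a mark, so that levels of the 2 marks are compared only by rank. Of the 7 genes, 4 (SRD5A1, SRD5A3, HSD17B4 and HSD17B11) had at least 100 read pairs in each mark and were compared between groups. The other 3 held 2 to 25 read pairs per mark over all groups, and their levels are described without a fold change.

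**Figure D1:**
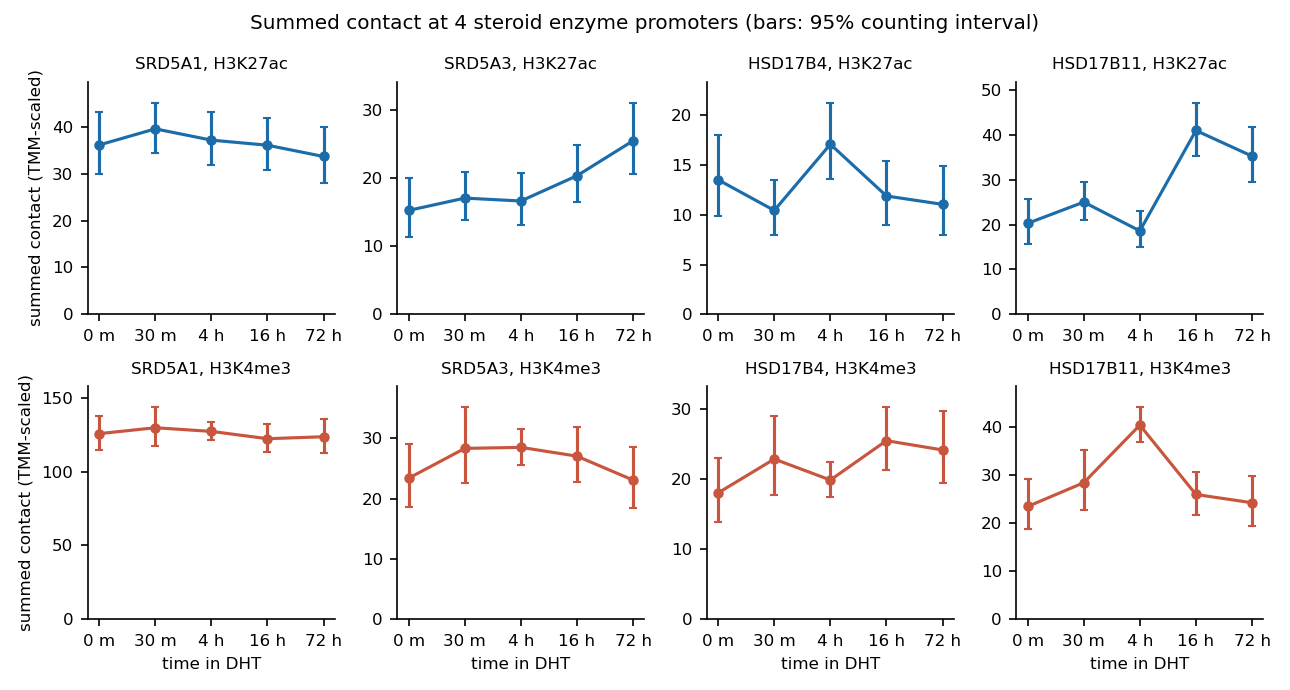
Summed contact (vertical axes, scaled units from 0) by time in DHT (horizontal axes) at the promoters of SRD5A1, SRD5A3, HSD17B4 and HSD17B11, for H3K27ac (upper row) and H3K4me3 (lower row). Points are the single value of a group and bars its 95% counting interval. HSD17B11 H3K27ac contact was 20.3 at 0 m and 41.0 at 16 h, whereas SRD5A1 stayed between 33.7 and 39.6.

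SRD5A1 had the highest contact of the 7 in H3K4me3 in every group and the least movement of the compared genes in that mark. From 0 m to 72 h, in order of time, H3K4me3 contact was 125.8, 129.8, 127.3, 122.4 and 123.7, on 380 to 1607 read pairs. The mean of 125.8 placed it at rank 2028 of 16251 promoters, where the median was 37.9. H3K27ac contact was 36.1, 39.6, 37.2, 36.1 and 33.7 in the same order, and its mean of 36.5 ranked 5376, beside a median of 20.6. Every log2 change of H3K4me3 against 0 m lay between -0.04 and 0.05, and at 16 h the interval ran from -0.22 to 0.14. In H3K27ac the log2 changes lay between -0.10 and 0.13, with an interval at 72 h of -0.47 to 0.27. The start of NSUN2, an RNA methyltransferase gene, lies 396 bp away and uses the same anchor, so that the contact of these promoters cannot be told apart.

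Of the 54 SRD5A1 loops, 44 were in the H3K4me3 loop set alone, 2 in the H3K27ac set alone and 8 in both. The strongest loop in all 10 tables joined the promoter to an anchor 5 kb away in an intron of SRD5A1. It held 30.9% to 37.5% of H3K27ac contact and 15.8% to 22.7% of H3K4me3 contact. The next was an 80 kb loop to the promoter of TENT4A, a noncanonical poly(A) polymerase gene, with H3K4me3 contact of 15.5, 18.1, 17.0, 12.8 and 12.9 from 0 m to 72 h. The third was a 10 kb loop into an exon of NSUN2, with 12.1, 13.7, 14.2, 15.1 and 14.8. Loops of 100 kb or more were 44 of the 54 but gave only 24.0% to 30.4% of H3K4me3 contact. Upstream loops of SRD5A1, 32 in number, had a log2 change of H3K4me3 contact of 0.41 (0.10 to 0.73) at 16 h, and its 22 downstream loops -0.28 (-0.49 to -0.06). In H3K27ac at 16 h the signs were the other way, with -0.35 (-1.05 to 0.35) upstream and 0.12 (-0.28 to 0.52) downstream, and both intervals included 0.

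SRD5A2, the reductase isoenzyme typical of normal prostate, was near 0 in both marks. Its 2 loops, 425 kb and 585 kb long, had H3K27ac contact of 0 in all groups other than 16 h, where the value of 0.425 rested on 2 read pairs. For a count of 0 the exact interval ends at a contact of 1.08 at 0 m and 0.664 at 30 m, and the floor of 3 read pairs is 0.882 and 0.540. H3K4me3 contact was 0.282, 0.683, 0.555, 0.193 and 1.1 from 0 m to 72 h, on 1 to 7 read pairs per table. The longer loop ended at the promoter of SLC30A6, a zinc transporter gene, and held 8 H3K4me3 read pairs over all groups.

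AKR1C3, the reductase that forms testosterone, was as low. Its 2 loops, one 245 kb upstream and one 175 kb downstream, gave H3K27ac contact of 0.588, 0.360, 0.214, 0.212 and 0.526 from 0 m to 72 h, on 1 to 2 read pairs each. H3K4me3 contact was 0.564, 0, 0.317, 0 and 1.1. HSD3B1, the first enzyme of the chain, had 1 loop, to an anchor 20 kb upstream. That loop had H3K27ac contact of 0.882, 0.720, 1.28, 1.06 and 1.58 and H3K4me3 contact of 0.846, 1.37, 0.872, 1.16 and 0.275. These 3 promoters ranked 14386 to 16054 of 16251 in H3K27ac and 14945 to 15721 in H3K4me3, and in every table the intervals of neighbours among the 3 overlapped. Close paralogs also had few loops, with 0 at AKR1C1 and HSD3B2 and 1 each at AKR1C2 and AKR1C4, although the loop of AKR1C4 held 70 H3K27ac read pairs. Reads were kept only at a mapping quality of at least 20, and the part that sequence shared between paralogs plays in these low values was not tested.

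Against 0 m, no compared promoter was at least 1.5-fold lower in any of the 8 comparisons, and 4 of the 32 values were at least 1.5-fold higher. For H3K27ac, 0 of 4 passed at 30 m, where 18.7% of 12441 tested promoters were higher, and 0 of 4 at 4 h, where 4.30% were. At 16 h 1 of 4 passed, beside 17.9% of all, and at 72 h 2 of 4, beside 17.6%. For H3K4me3, 0 of 4 passed at 30 m, beside 1.95% of 13159 tested promoters, 1 of 4 at 4 h, beside 14.5%, 0 of 4 at 16 h, beside 4.75%, and 0 of 4 at 72 h, beside 2.77%. The shares of all promoters that were lower were 3.62%, 1.31%, 9.52% and 7.06% for H3K27ac and 2.70%, 2.53%, 0.882% and 6.63% for H3K4me3 in the same order. With 4 promoters these counts cannot be set apart from the background, and the comparisons of a mark share its 0 m table.

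The median promoter itself moved, by log2 changes of 0.26, 0.05, 0.13 and 0.16 in H3K27ac and of 0.04, 0.22, 0.12 and -0.15 in H3K4me3 from 30 m to 72 h. Scaling the read pairs to equal totals shifted every value by -0.25 at 16 h and -0.17 at 72 h in H3K27ac and by -0.22, -0.14 and 0.13 at 4 h, 16 h and 72 h in H3K4me3.

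**Figure D2:**
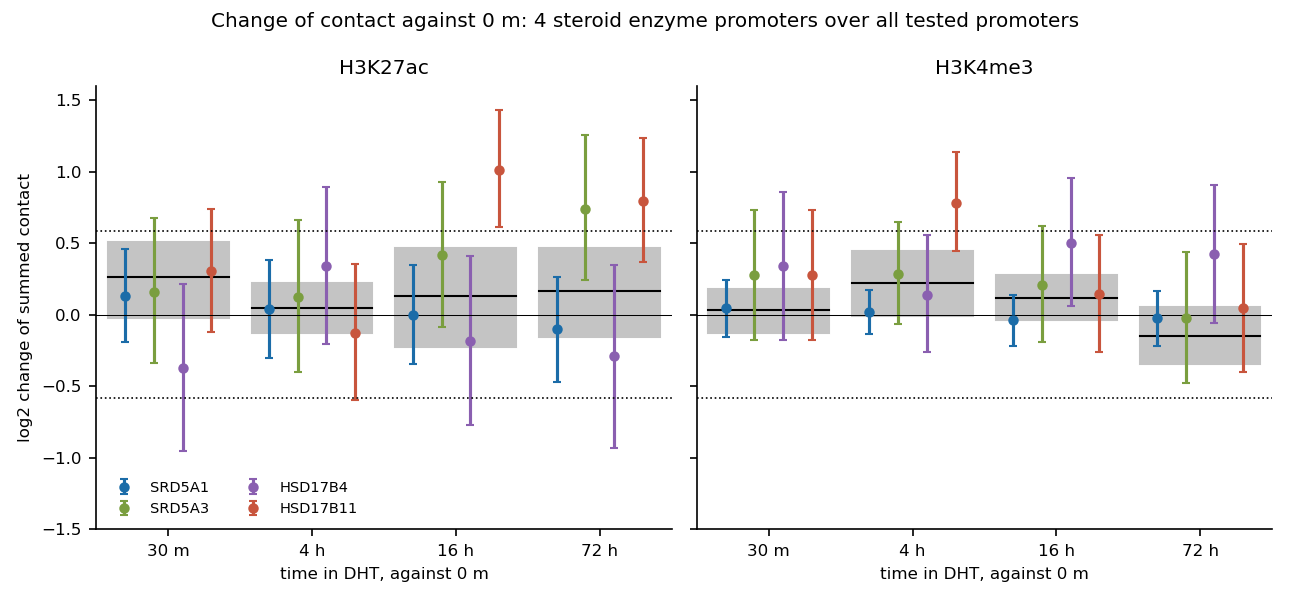
Log2 change of summed contact against 0 m (vertical axis) at each time in DHT (horizontal axis) for SRD5A1, SRD5A3, HSD17B4 and HSD17B11, with 95% counting intervals. Grey boxes span the quartiles of all tested promoters and black lines their median, and dotted lines mark 1.5-fold in either direction. The highest point is HSD17B11 H3K27ac at 16 h, at 1.02.

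HSD17B11, the 17-beta dehydrogenase of lipid droplets, had 3 of the 4 values past the threshold. H3K27ac contact of HSD17B11 was 20.3, 25, 18.6, 41.0 and 35.3 from 0 m to 72 h, on 69, 139, 87, 193 and 134 read pairs. The values at 16 h and 72 h stood above the other 3, and their intervals began at 35.4 and 29.5, while that of 0 m ended at 25.7. The log2 change was 1.02 (0.61 to 1.43) at 16 h and 0.80 (0.37 to 1.24) at 72 h, or 0.88 and 0.64 above the median promoter. Of the 12441 promoters, 499 (4.01%) changed by at least as much at 16 h and 977 (7.85%) at 72 h. Between 4 h and 16 h the log2 change was 1.14 (0.77 to 1.52), and between 16 h and 72 h it was -0.22 (-0.55 to 0.11). With starts of all transcripts of HSD17B11 used in place of the canonical start, the changes were 0.50 at 16 h and 0.36 at 72 h and no longer passed 1.5-fold, and with 30 m as the reference the change at 72 h was 0.50.

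H3K4me3 contact of HSD17B11 followed another course, with 23.4, 28.4, 40.3, 25.9 and 24.2. Its high value was that of 4 h, a log2 change of 0.78 (0.45 to 1.14), which 6.25% of tested promoters matched or passed. This table was the deepest of the series, and the part of depth was not tested. With equal totals the change was 0.56 and with 30 m as the reference 0.51, both under 1.5-fold. At 16 h, where H3K27ac contact was highest, the H3K4me3 change was 0.15 (-0.26 to 0.56).

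The 23 loops of HSD17B11 were 5 in the H3K27ac set alone, 9 in the H3K4me3 set alone and 9 in both. A 30 kb loop to the promoter of NUDT9, an ADP-ribose hydrolase gene, was the strongest in all 5 H3K27ac tables, with 21.6% to 25.9% of contact. The loop had H3K27ac contact of 4.41, 6.48, 4.70, 9.77 and 7.63 from 0 m to 72 h. In H3K4me3 it led at 4 h and 16 h, a 15 kb loop into an intron of HSD17B11 led at 30 m and 72 h, and both held 19 read pairs at 0 m. H3K4me3 contact of the NUDT9 loop was 5.36, 4.78, 7.69, 6.38 and 4.12, and that of the intronic loop 5.36, 5.12, 6.97, 3.48 and 5.22.

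Single loops were compared where they held at least 50 read pairs in a mark, which 10 loops of the 7 genes did in H3K27ac and 23 in H3K4me3. At 16 h 5 of the 10 were at least 2-fold higher in H3K27ac, beside 17.7% of 72724 such loops, and at 72 h 2 of the 10 were, beside 15.2%. The count was 1 at 30 m (10.7% of all) and 1 at 4 h (7.32%). In H3K27ac 0 of the 10 were at least 2-fold lower, where the shares of all loops, from 30 m to 72 h, were 6.43%, 3.60%, 6.81% and 7.90%. In H3K4me3, 1 of 23 was at least 2-fold higher at 4 h (11.7% of 92361 loops) and 0 at 30 m (7.75%), 16 h (8.46%) and 72 h (5.63%). At least 2-fold lower was 1 at 16 h (3.72%), and 0 were at 30 m (7.87%), 4 h (2.56%) and 72 h (9.89%). The loop that was lower joined SRD5A1 to an intron of TENT4A 115 kb away, with a log2 change of -1.08 (-1.84 to -0.33), from 39 to 27 read pairs. The 5 at 16 h came from HSD17B11 (3 of its 4) and SRD5A3 (2 of its 3), and loops of one promoter share its anchor. Of these 5, the NUDT9 loop alone reached 50 read pairs without those of 16 h, and the other 4 held 39 to 48 in the other groups, so that they were compared only through the group in which they were high. The loops higher at 30 m, 4 h and 72 h in H3K27ac likewise fell below 50 without the group in question. The intervals of 3 of the 5 at 16 h included 0. These counts are therefore a description of the loops and carry no weight beside the shares of all loops.

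For HSD17B11 at 16 h, the 20 kb upstream loop had a log2 change of 1.58 (0.36 to 3.02), from 7 to 29 read pairs. The NUDT9 loop had 1.15 (0.28 to 2.10), from 15 to 46. An 85 kb downstream loop into an intron of HSD17B13, a related dehydrogenase of lipid droplets in liver, had 1.12 (-0.42 to 2.93) at 16 h and 1.84 (0.38 to 3.61) at 72 h, from 5 to 15 and 20. The intronic 15 kb loop had H3K27ac contact of 3.23 at 0 m and 2.97 at 16 h. Its log2 change was -0.12 (-1.37 to 1.16), from 11 to 14 read pairs, and this interval overlapped those of the loops just named. Upstream loops as a class (13) had a log2 change of 1.34 (0.81 to 1.91) at 16 h and downstream loops (10) 0.51 (-0.13 to 1.17), with intervals that overlapped. Contact of the NUDT9 promoter itself over the 34 loops it does not share with HSD17B11 had a log2 change of 0.28 (0.04 to 0.52) at 16 h and -0.07 (-0.33 to 0.20) at 72 h.

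In H3K4me3 the loops of HSD17B11 were also split by length, as loops of the compared genes were by set, direction and partner. No share of all promoters is at hand for such splits. The 7 loops under 100 kb had log2 changes of -0.09 (-0.63 to 0.44) at 30 m, 0.47 (0.10 to 0.86) at 4 h, -0.14 (-0.60 to 0.33) at 16 h and -0.38 (-0.91 to 0.15) at 72 h. The 16 loops of 100 kb or more had 1.5 (0.48 to 2.61), 1.90 (1.05 to 2.88), 1.19 (0.23 to 2.26) and 1.38 (0.38 to 2.47), all from the same 12 read pairs at 0 m. The intervals of the longer and the shorter loops overlapped at 16 h and not in the other 3 comparisons. The 1 H3K4me3 loop called at 4 h, 70 kb upstream, had 1.12 (-0.38 to 3.09), from 4 to 31 read pairs. It held 53 read pairs over all groups and 22 without 4 h, so that it was compared only through its high value.

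**Figure D3:**
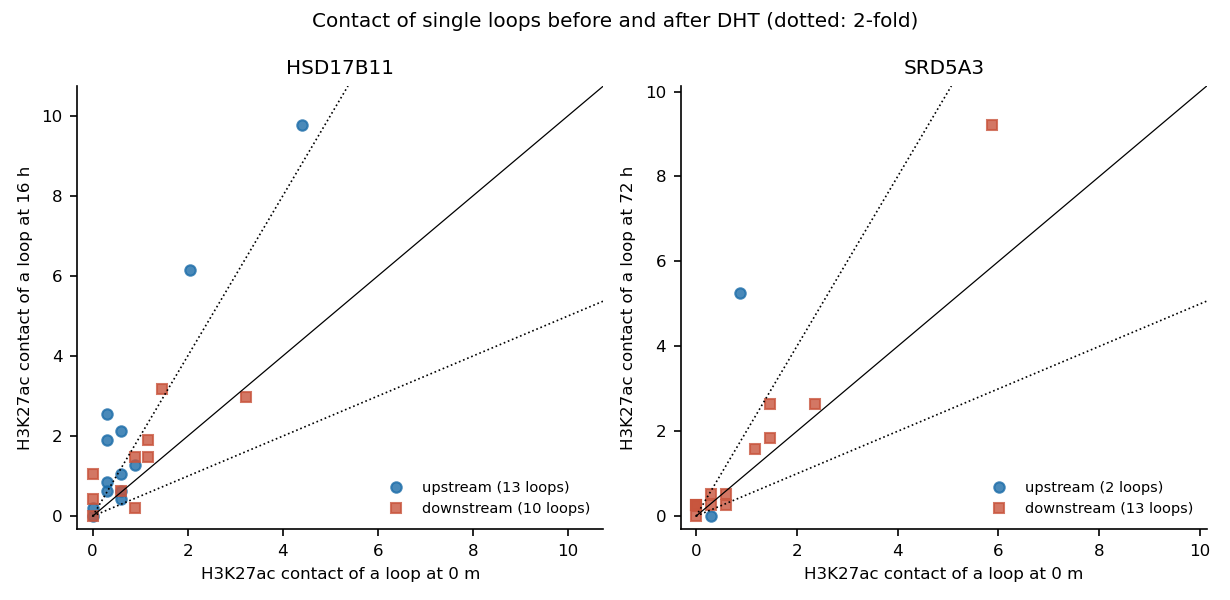
H3K27ac contact of each loop at 0 m (horizontal axes) against 16 h for the 23 loops of HSD17B11 (left) and against 72 h for the 15 loops of SRD5A3 (right), in scaled units, with upstream loops as circles and downstream loops as squares. The solid line marks no change and dotted lines 2-fold. The circle far above the line on the right is the 15 kb upstream loop of SRD5A3, at 0.882 and 5.26.

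SRD5A3, the dolichol enzyme, had the fourth value past the threshold. From 0 m to 72 h its H3K27ac contact was 15.3, 17.1, 16.7, 20.4 and 25.5, on 52, 95, 78, 96 and 97 read pairs. The value at 72 h was the highest, a log2 change of 0.74 (0.24 to 1.26), or 0.58 above the median promoter, and 9.85% of tested promoters matched or passed it. At 16 h the change was 0.42 (-0.09 to 0.93). The call at 72 h was lost with equal totals (0.57) and with loops of the H3K4me3 set, those in both sets included (0.47). It was also lost with loops of at least 20 kb (0.45) and 30 m as the reference (0.58). H3K4me3 contact was 23.4, 28.4, 28.5, 27.1 and 23.1, and its change at 72 h was -0.02 (-0.47 to 0.44). An unnamed gene model starts 14 bp from SRD5A3 and shares its anchor.

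The strongest SRD5A3 loop in all 10 tables ran 50 kb to the promoter of TMEM165, a Golgi protein gene also tied to glycosylation, and held 23.1% to 38.5% of H3K27ac and 28.9% to 43.4% of H3K4me3 contact. Its H3K27ac contact was 5.88, 6.48, 3.85, 7.22 and 9.21 from 0 m to 72 h. A 200 kb loop reached the promoter of CLOCK, a circadian transcription factor gene, with H3K27ac contact of 2.35, 0.90, 0.855, 1.91 and 2.63. Together with a loop to EXOC1, loops to other promoters gave 44.2% of the mean H3K27ac contact of SRD5A3, while the median over 10979 promoters with at least 10 loops was 25.3%. The 15 kb upstream loop had 3 read pairs at 0 m and 12, 13, 13 and 20 later, and its log2 change at 72 h was 2.58 (0.82 to 4.97). The 15 kb loop into an intron of SRD5A3 had 1.30 (-0.20 to 3.09) at 16 h, from 5 to 17 read pairs. TMEM165 over the 79 loops it does not share with SRD5A3 had H3K27ac contact of 75.5 at 0 m, 121.7 at 16 h and 152.4 at 72 h, a log2 change of 0.69 (0.47 to 0.91) at 16 h and 1.01 (0.80 to 1.23) at 72 h.

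The far anchors of the 20 kb HSD17B11 loop and the 15 kb SRD5A3 loop are shown as 200 bases around a match to AGAACA, in capitals, because these loops had the highest H3K27ac change among the compared loops of their promoter, at 16 h for HSD17B11 and at 72 h for SRD5A3. They are read 5′ to 3′ on the plus strand of GRCh37 at chr4:88332317-88332516, inside an annotated processed pseudogene, and at chr4:56197018-56197217, outside annotated protein-coding genes (canonical transcripts).
HSD17B11 partner: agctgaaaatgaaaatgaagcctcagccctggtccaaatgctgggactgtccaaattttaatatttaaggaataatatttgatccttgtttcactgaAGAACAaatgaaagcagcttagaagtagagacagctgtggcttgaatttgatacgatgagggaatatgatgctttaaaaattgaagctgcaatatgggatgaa
SRD5A3 partner: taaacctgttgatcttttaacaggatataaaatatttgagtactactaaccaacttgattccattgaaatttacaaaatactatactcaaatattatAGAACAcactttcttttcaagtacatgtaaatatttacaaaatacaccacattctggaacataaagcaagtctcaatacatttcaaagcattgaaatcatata

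The HSD17B11 partner anchor held 3 matches to AGAACA on both strands in its 1 kb, as 6.18% of 200097 anchors did or exceeded, and the SRD5A3 partner 1, as 55.5% did or exceeded. The count of 3 was not particular to that loop: 3 other HSD17B11 partners also held 3, among them that of the 15 kb intronic loop, and those of the NUDT9 and 85 kb loops held 1 each. Over all 129 partner anchors, 79 (61.2%) held AGAACA, beside 55.5% of all anchors, and 19 (14.7%) held TGTTTAC, beside 14.4%. GGGCGG lay in 16.3% of the partners and 16.1% of all anchors. The whole element lay in 0 of the 129 and in 0.0190% of all anchors. Loops were called in 5 kb bins, and only the 1 kb listed as an anchor was searched, so the rest of each bin was not read. A match is a run of letters and no evidence that a factor binds.

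HSD17B4, the peroxisomal enzyme, had the lowest contact of the 4 compared promoters in most tables and no value past 1.5-fold against 0 m. In order of time its H3K27ac contact was 13.5, 10.4, 17.1, 11.9 and 11.1, and its H3K4me3 contact 18.0, 22.9, 19.9, 25.5 and 24.2. The largest change against 0 m was 0.50 (0.06 to 0.95) for H3K4me3 at 16 h. Between 30 m and 4 h H3K27ac contact had a log2 change of 0.71 (0.21 to 1.23), and between 4 h and 16 h -0.52 (-1.04 to -0.01), so that 4 h stood above its neighbours. Against 0 m the change at 4 h was 0.34 (-0.20 to 0.89), an interval that included 0. No share of all promoters is at hand for the pairs of later groups. At 72 h the log2 change of H3K27ac contact was -1.52 (-3.02 to -0.19) for the 4 loops under 100 kb, from 18 to 7 read pairs, and 0.16 (-0.60 to 0.93) for the 28 longer ones, with intervals that overlapped.

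Of the 32 loops of HSD17B4, 28 were in the H3K4me3 set alone, and 28 (87.5%) spanned 100 kb or more, up to 2510 kb. Such long loops were 81.5% of those of SRD5A1, and the median over promoters with at least 10 loops was 72.2%. The median loop was longer at SRD5A1 (570 kb) than at HSD17B4 (410 kb). The long loops of HSD17B4 gave 60.9% to 83.3% of its H3K27ac contact, against at most 35.6% at HSD17B11 and 21.1% at SRD5A1. A 10 kb loop into an intron of HSD17B4 was the strongest in 8 of the 10 tables, with H3K4me3 contact of 3.95, 5.12, 4.99, 6.96 and 4.67, and a 425 kb loop led in the other 2, both of H3K27ac. The 380 kb loop to the promoter of DMXL1, which encodes a regulator of the proton pump, had H3K4me3 contact of 1.97, 1.71, 1.03, 2.32 and 1.65. Slightly stronger in that mark was a 185 kb upstream loop to an anchor outside annotated protein-coding genes (canonical transcripts), with 2.54, 2.05, 1.66, 1.74 and 1.92. In H3K27ac the 425 kb downstream loop had 2.35, 0.540, 2.56, 2.34 and 2.63, and a 415 kb upstream loop, the third of that mark, had 0.588, 1.08, 1.28, 1.06 and 2.11. The Gini index of contact over loops, 0 where all loops are equal, was 0.42 for HSD17B4 in H3K4me3, 0.55 for SRD5A3, 0.56 for HSD17B11 and 0.69 for SRD5A1, beside a median of 0.57. In H3K27ac the lowest was that of HSD17B11 (0.51), followed by HSD17B4 (0.54), SRD5A3 (0.59) and SRD5A1 (0.81), beside a median of 0.61.

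**Figure D4:**
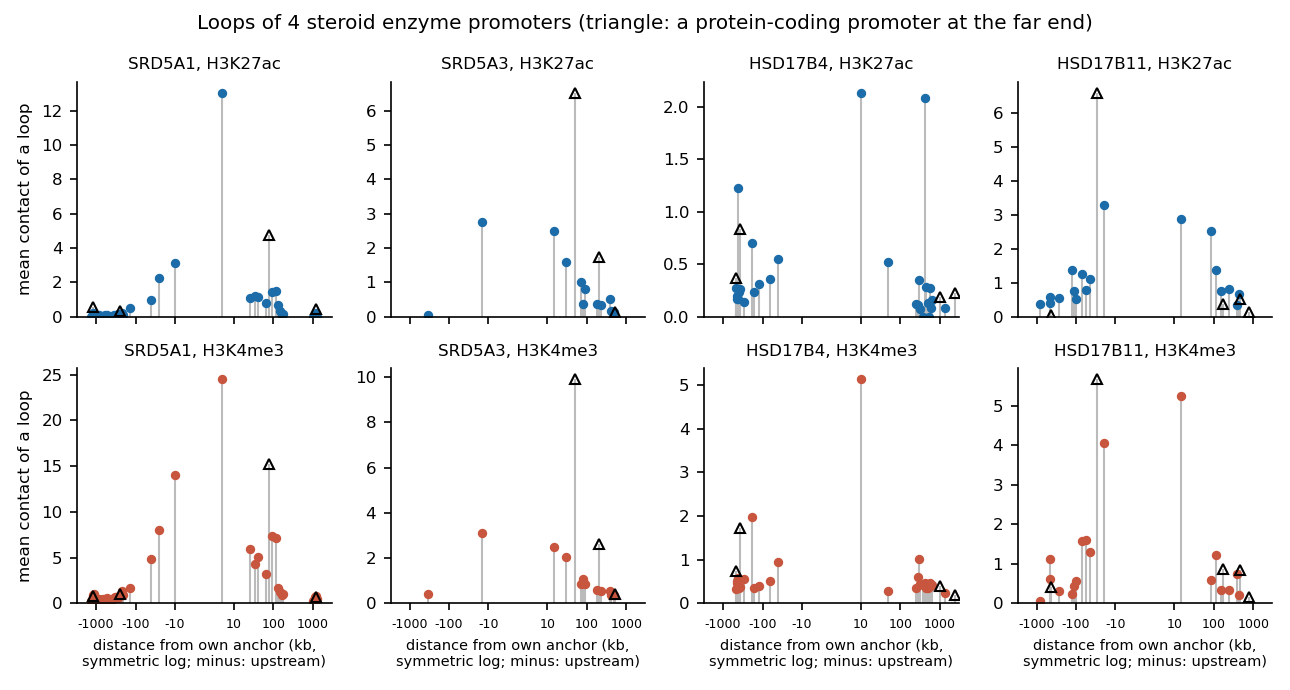
Mean contact over the 5 groups (vertical axes, scaled units) of each loop of SRD5A1, SRD5A3, HSD17B4 and HSD17B11 against the distance of its far anchor (horizontal axes, kb on a symmetric log scale, minus for upstream). Triangles are loops with a protein-coding promoter at the far end. The tallest stem of SRD5A1 lies 5 kb downstream and that of SRD5A3 is the triangle at 50 kb, the TMEM165 promoter.

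In order of H3K27ac contact at 0 m, SRD5A1 (36.1) stood above HSD17B11 (20.3) with intervals that did not overlap, HSD17B11, SRD5A3 and HSD17B4 had overlapping intervals in turn, and HSD17B4 (13.5) stood clear of HSD3B1 (0.882). At 16 h HSD17B11 (41.0) was level with SRD5A1 (36.1) within their intervals, and SRD5A1 stood above SRD5A3 (20.4). In H3K4me3 SRD5A1 was clear of the next gene in all 5 tables.

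Among promoters with at least 500 read pairs in both marks, 7613 of which shared no loop with SRD5A1 or HSD17B11, the course most like HSD17B11 over the 10 tables was that of UGCG (Pearson r 0.991), the glucosylceramide synthase gene, and ARL6IP5 (0.986). Their H3K27ac changes at 16 h were 1.25 and 1.27. For SRD5A1 they were CBX7 (0.911), a Polycomb gene, and TRAPPC5 (0.904). The tables of a mark share their scaling and 0 m reference, and these values describe likeness only.

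Of 27 other genes of steroid synthesis, conversion and sulfation, 19 had loops, 12 were compared in H3K27ac and 15 in H3K4me3, and 0 shared a loop with the 7. In H3K27ac at 16 h, 4 of 12 were at least 1.5-fold higher, beside 17.9% of all promoters, and 3 at least 1.5-fold lower, beside 9.52%. Those higher were HSD17B8, a mitochondrial dehydrogenase (log2 1.03), H6PD, which supplies NADPH in the endoplasmic reticulum (0.98), CYB5A, the cytochrome b5 that aids the lyase step of CYP17A1 (0.79), and PAPSS1, which makes the sulfate donor (0.59). Those lower were CYP19A1, the aromatase (-1.25, from -2.02 to -0.51), SULT2B1, a sterol sulfotransferase (-0.84), and HSD17B10, a mitochondrial dehydrogenase (-0.61). At 72 h only H6PD was higher (0.73), where 17.6% of all were, and HSD17B2, which oxidises testosterone (-1.51), CYP19A1 (-0.68) and SULT2B1 (-0.62) were lower, where 7.06% of all were. Intervals of CYP19A1 (-1.40 to 0.03) and SULT2B1 (-1.32 to 0.07) at 72 h included 0. At 30 m HSD17B1, which forms estradiol (0.60), and HSD17B8 (0.87) were higher and 0 lower, beside 18.7% and 3.62% of all. At 4 h 0 of 12 passed either way, beside 4.30% higher and 1.31% lower.

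In H3K4me3, HSD17B12, a fatty acid elongation enzyme, was the 1 gene of 15 at least 1.5-fold higher in each comparison. Its log2 changes were 1.05 (-0.41 to 2.64), 1.0 (-0.14 to 2.39), 1.46 (0.23 to 2.89) and 1.16 (-0.21 to 2.68) from 30 m to 72 h. All 4 rest on the same 7 read pairs at 0 m, and the first, second and last intervals include 0. It held 113 read pairs in H3K4me3 and fell below the minimum of 100 without 4 h, without 16 h or without 72 h. CYP11A1, the side-chain cleavage enzyme, had log2 changes of -0.72 (-1.81 to 0.29) at 30 m, -0.65 (-1.34 to 0.08) at 4 h and -0.74 (-1.73 to 0.22) at 72 h, past 1.5-fold lower but with intervals that all included 0. CYP19A1 had -0.72 (-1.81 to 0.29) at 30 m and -0.86 (-1.57 to -0.12) at 4 h. RDH16, a retinol dehydrogenase, had -0.95 (-2.06 to 0.08) at 30 m, and H6PD -0.65 (-1.04 to -0.26) at 72 h. The counts from 30 m to 72 h were 1 higher each time, beside 1.95%, 14.5%, 4.75% and 2.77% of all promoters, and 3, 2, 0 and 2 lower, beside 2.70%, 2.53%, 0.882% and 6.63%. Both genes lower at 4 h, CYP11A1 and CYP19A1, held under 100 read pairs without that table (89 and 98). The median log2 change of the list in H3K27ac was 0.16, 0.22, 0.09 and -0.0059 in that order, where the median over all promoters tested was 0.26, 0.05, 0.13 and 0.16. In H3K4me3 the list had -0.18, 0.18, 0.11 and -0.14, and all promoters 0.04, 0.22, 0.12 and -0.15.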

How the data were processed

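HiChIP of H3K27ac (2 samples per group) and H3K4me3 (1 per group) was analysed from 10 deposited tables, 1 per mark and time point. Per the methods and labels, the authors trimmed reads with Trim Galore 0.5.0, aligned them to hg19 with HiC-Pro 3.1.0 and Bowtie2 at a mapping quality of at least 20, removed duplicates, and called loops with FitHiChIP in 5 kb bins (up to 3 Mb, q under 0.01) on merged time points. The deposited values are contact signal, scaled by the authors by TMM among the 5 time points of a mark. Whether both H3K27ac replicates entered a value was not given in the sources used here.

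Each table had its own step, the worth of 1 read pair, and 100% of values divided by it came out whole (within 0.01). No count test was run, since a group has 1 value. The 574817 listed loops held 505995 different anchor pairs. Promoters were Gencode 44 canonical starts on GRCh37, 2.5 kb on either side. Promoters needed 100 read pairs over 5 groups and a call 1.5-fold; loops needed 50 and 2-fold. Intervals of ratios are exact (Clopper-Pearson) and those of levels exact Poisson. Promoter sequence was read from GRCh37, with 1 chromosome left out. All 7 genes were named, with the 3 strongest loops of each and those called, the other pathway genes past 1.5-fold, and the 2 genes of the most similar course. The members and lists were chosen with earlier results of these data known. Of the luminal marker list, 1 gene is not reported here. Calls and intervals were checked on simulated data. The software was scipy 1.17.1 with pandas 2.3.3 and numpy 2.4.6 under Python 3.11.15.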

Additional observations from a re-analysis of the deposited data

How the results depend on the processing

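No paired analysis was possible because the tables hold 1 value per mark and time point, with no replicate values. For the same reason no replicate was left out, and counting intervals hold no spread between cultures. Of 328 alternative values for single genes, 322 moved by less than their counting interval, 6 moved by more and 0 changed the direction of a called value. Of 86 alternative counts of promoters at least 1.5-fold higher or lower, 72 stayed within 1.5 times the reported count. The 14 others were as follows. In H3K27ac at 30 m the count was 1, not 0, with loops of at least 20 read pairs or starts of all transcripts. At 4 h it was 1 with 30 m as the reference, an alternative chosen after seeing the data. At 72 h it was 1, not 2, with equal totals and with loops of the H3K4me3 set, those in both sets included. It was also 1 with loops of at least 20 kb, with starts of all transcripts and with anchors at no other promoter (2 genes compared), and 0 with 30 m as the reference. With no minimum of read pairs, other than more than 3 in at least 1 of the groups compared, the H3K4me3 count at 30 m was 1. At 4 h it was 0, not 1, with equal totals or 30 m as the reference and 3 with no minimum, and at 72 h 2 with no minimum, all of the added genes having 25 read pairs or fewer. The cause of these moves was not tested, other than that no minimum adds sparse genes and the last H3K27ac setting leaves 2 genes.

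HSD17B11 H3K27ac at 16 h ranged from 0.50 (starts of all transcripts) to 1.16 (loops of at least 20 kb) and passed 1.5-fold in 10 of 11 alternatives. At 72 h it ranged from 0.36 to 0.97 and passed in 9 of 11. SRD5A3 at 72 h ranged from 0.45 to 1.08 and passed in 6 of 10. HSD17B11 H3K4me3 at 4 h ranged from 0.51 to 0.89 and passed in 9 of 11. Depth limits SRD5A2, HSD3B1 and AKR1C3, with 2 to 25 read pairs per mark.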
